A study of Rattus norvegicus with 9 samples.

Results

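The femora of ovariectomized rats were compared with those of normal Sprague-Dawley rats by sequencing of poly(A) RNA, with 3 libraries in each group. Both groups are wild type in the labels, and the series title places the ovariectomized rats in a model of postmenopausal osteoporosis. The comparison covers 13886 of the 32623 gene rows deposited, those with a mean of at least 1 FPKM (fragments scaled by transcript length and library size) over the 9 libraries of the series. The other 3 libraries, from rats given the herb Desertliving Cistanche, entered the fit only for the spread between replicates. The sources used here do not give age, the time since surgery, whether controls had a sham operation or whether each library came from a separate animal. The p-values therefore measure only the spread between these libraries, which may be technical.

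Removal of the ovaries withdraws oestrogen, which normally restrains the formation of osteoclasts, the cells that resorb bone. Osteoblasts, the cells that lay down and mineralize bone matrix, share a stromal precursor in the marrow with fat cells, and oestrogen loss in rodents is known for both bone loss and a fattier marrow. A femur sample also holds cartilage, blood-forming marrow and any muscle or other soft tissue left on the bone. In such bulk RNA, fewer cells of a type and less RNA per cell cannot be told apart.

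The 6 libraries held 54992823 to 66531156 counts, and their scaling factors (TMM) ran from 0.939 to 1.02. Spearman correlations across genes ran from 0.965 to 0.983 over the 15 pairs of libraries, and the most similar pair still had a chi-square of 103.2 per degree of freedom, so none was taken for a repeat of another. Bone was plainly present, with Col1a1, the main collagen of bone, between 1060 and 6330 CPM (counts divided by library size and multiplied by 1e6, with TMM-scaled sizes for single genes). The 48 rows on chromosome Y summed to 212 to 303 counts per library. Libraries of 1 group differed in transcript levels of tissue and interferon response genes. Control replicate 3 had the lowest fat cell and highest cartilage transcript levels, and control replicate 1 the lowest muscle levels. Ovariectomized replicate 3 had the highest muscle transcript levels, and ovariectomized replicate 1 the highest interferon response levels. The part these differences play in the results was not tested.

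No single gene passed the threshold in the edgeR quasi-likelihood test, with 0 of 13886 rows (0.0%) at an adjusted p under 0.05 and 701 at an unadjusted p under 0.05. The smallest edgeR adjusted p of any row was 0.6695. The count at an adjusted p under 0.05 was 4 without control replicate 1. Limma also called 0 rows, with 840 at an unadjusted p under 0.05, and DESeq2 called 59 (0.425%), of which 42 were higher and 17 lower in ovariectomized rats. A looser rule, an unadjusted p under 0.05 together with a fold of 2 or more, does not control false calls, and by it 193 rows were higher (1.39%) and 49 lower (0.353%). The lower count was 108 without ovariectomized replicate 1. All 3 ovariectomized libraries lay above all 3 controls in 696 rows (5.01%) and below them in 548 (3.95%). Within same-numbered pairs of libraries, 1956 rows were higher in all 3 pairs (14.1%) and 1855 lower (13.4%). The titles do not state that libraries of the same number belong together. On the deposited FPKM scale the numbers of separated rows were 1055 and 284, so the share on the higher side went from 55.9% to 78.8% with the scale. Over all rows tested, 6760 estimates were higher and 7126 lower, and their median was -0.004 on the log2 scale. The values that follow are therefore differences in level with their spread, and the 60 gene lists are described by counts and medians to be read against these shares.

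**Figure D1:**
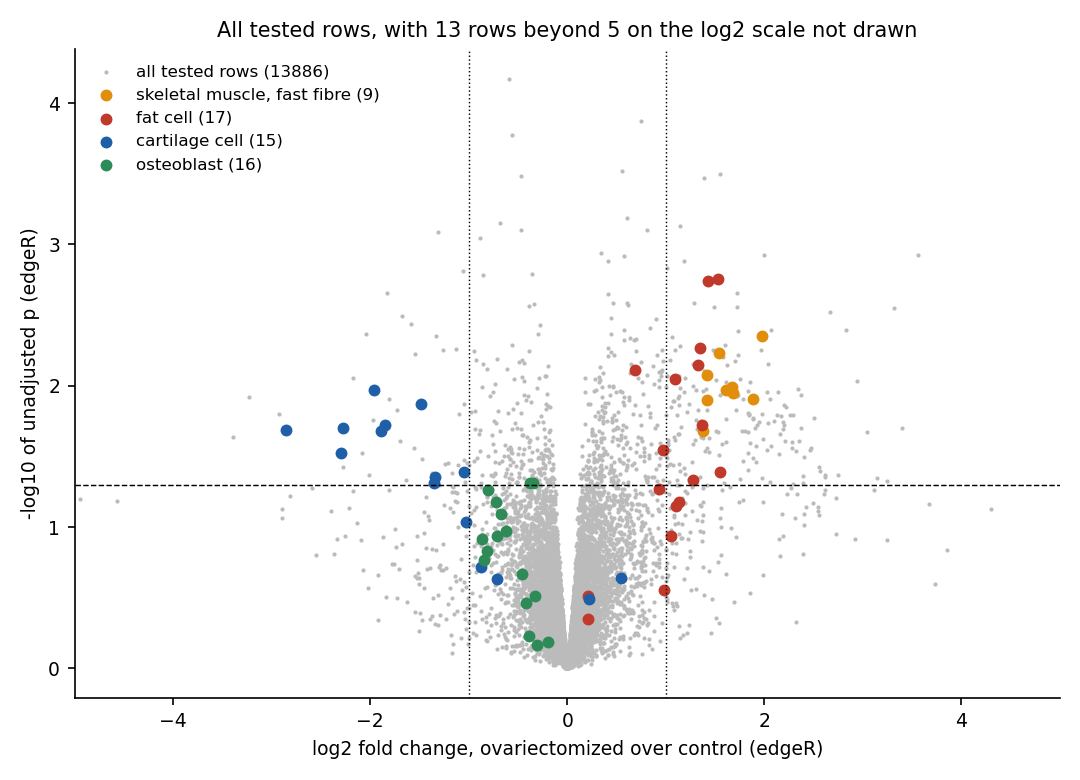
Each grey point is 1 of the 13886 rows, placed by its edgeR log2 fold change (ovariectomized over control, x axis) and the -log10 of its unadjusted p (y axis). The dashed line is the unadjusted threshold of 0.05, the dotted lines are 2-fold, and coloured points are 4 marker lists. Fat cell and fast muscle fibre members lie to the right, cartilage and osteoblast members mostly to the left, and 13 rows beyond 5 on the x axis are not drawn.

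Fat cell genes were the marker list with the most members separated between the groups. All 17 tested members had higher estimates in ovariectomized rats (median log2 fold change 1.102, range 0.21 to 1.56), 12 with groups that did not overlap, and 8 met the looser rule. Their summed level, in CPM by total counts as for every list sum here, was 1395, 1239 and 636.5 CPM in the controls and 2498, 2371 and 1718 CPM in the ovariectomized libraries, 2.01 times as high on average. Every ovariectomized library lay above every control in that sum, and control replicate 3 was low. Without that control the ratio was 1.67 and the median 0.77.

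Lpl encodes the enzyme on capillary walls that frees fatty acids for uptake (chromosome 16, 22537056 to 22561496 in the authors' table, for which no genome build is named in the labels or header). It measured 128, 136 and 65.2 CPM in controls and 299, 399 and 253 CPM in ovariectomized rats. The lowest ovariectomized library was thus well above the highest control, with a log2 fold change of 1.53 ± 0.34 (SE; edgeR adjusted p = 0.892, DESeq2 adjusted p = 0.00194). Retn, which encodes the adipokine resistin, measured 55.5, 51.6 and 23.2 CPM in controls against 95.5, 127 and 130 CPM (1.43 ± 0.32 SE; edgeR adjusted p = 0.892, DESeq2 adjusted p = 0.00309). These and Gpd1, the glycerol phosphate dehydrogenase that feeds triglyceride synthesis (84.7, 74.8 and 36.8 CPM against 186, 207 and 106 CPM), were the 3 members that DESeq2 called.

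The proteins that coat and empty the lipid droplet showed the same separation. Plin1, the perilipin that guards stored fat, was at 116, 97.4 and 22.7 CPM in controls and 246, 198 and 130 CPM in ovariectomized rats. Plin4, another perilipin, was at 21.5, 18.9 and 6.58 CPM against 42, 39 and 36.6 CPM. Cidec, which fuses droplets into larger ones, was at 42.1, 33.5 and 10.4 CPM against 89.4, 80.1 and 52.7 CPM. In each of these genes the low control was replicate 3, and the groups stayed apart without overlap. Lipe, the hormone-sensitive lipase, had a log2 fold change of 1.09 ± 0.32 (SE), Mgll, which completes triglyceride breakdown, 0.33 ± 0.10, and the caveolar coat gene Cav1 0.84 ± 0.21. Of the 17 tested lipid droplet and lipolysis genes, 13 were higher, 9 of them without overlap (median 0.58). Plin1, Plin4, Cidec, Cidea and Lipe are also members of the fat cell list.

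Secreted products of fat cells were less uniform. Adipoq, which encodes adiponectin, measured 184, 157 and 36.7 CPM in controls against 349, 286 and 175 CPM, so that the lowest ovariectomized library fell just under the highest control (1.102 ± 0.532 SE). Lep, which encodes leptin, overlapped widely at 3.69, 4.31 and 0.446 CPM against 8.41, 2.08 and 6.12 CPM. Cfd, the complement protease adipsin, was at 0.21 ± 0.26 (SE), and Fabp4, the fatty acid carrier of fat cells, at 0.93 ± 0.42 with no overlap. Without control replicate 3, Adipoq was at 0.664, Lep at 0.47, Fabp4 at 0.553 and Plin1 at 0.843. Ucp1, the defining protein of brown fat, had 0 counts in all 6 libraries.

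Among transcription factors of fat cell formation, 10 of 13 were higher (median 0.21). Pparg, the nuclear receptor that drives fat cell differentiation, measured 22.6, 22.6 and 17.7 CPM in controls and 38.1, 37.2 and 25.8 CPM in ovariectomized rats (0.69 ± 0.20 SE). Klf15, a zinc finger factor active in differentiated fat and muscle, went from 4.84, 3.67 and 4.71 CPM to 9.31, 6.91 and 6.05 CPM. These were the only 2 of the 13 without overlap. Cebpa, the partner of Pparg in mature fat cells, was at 0.21 ± 0.19, and Cebpb, an early factor, was lower at -0.61 ± 0.25.

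**Figure D2:**
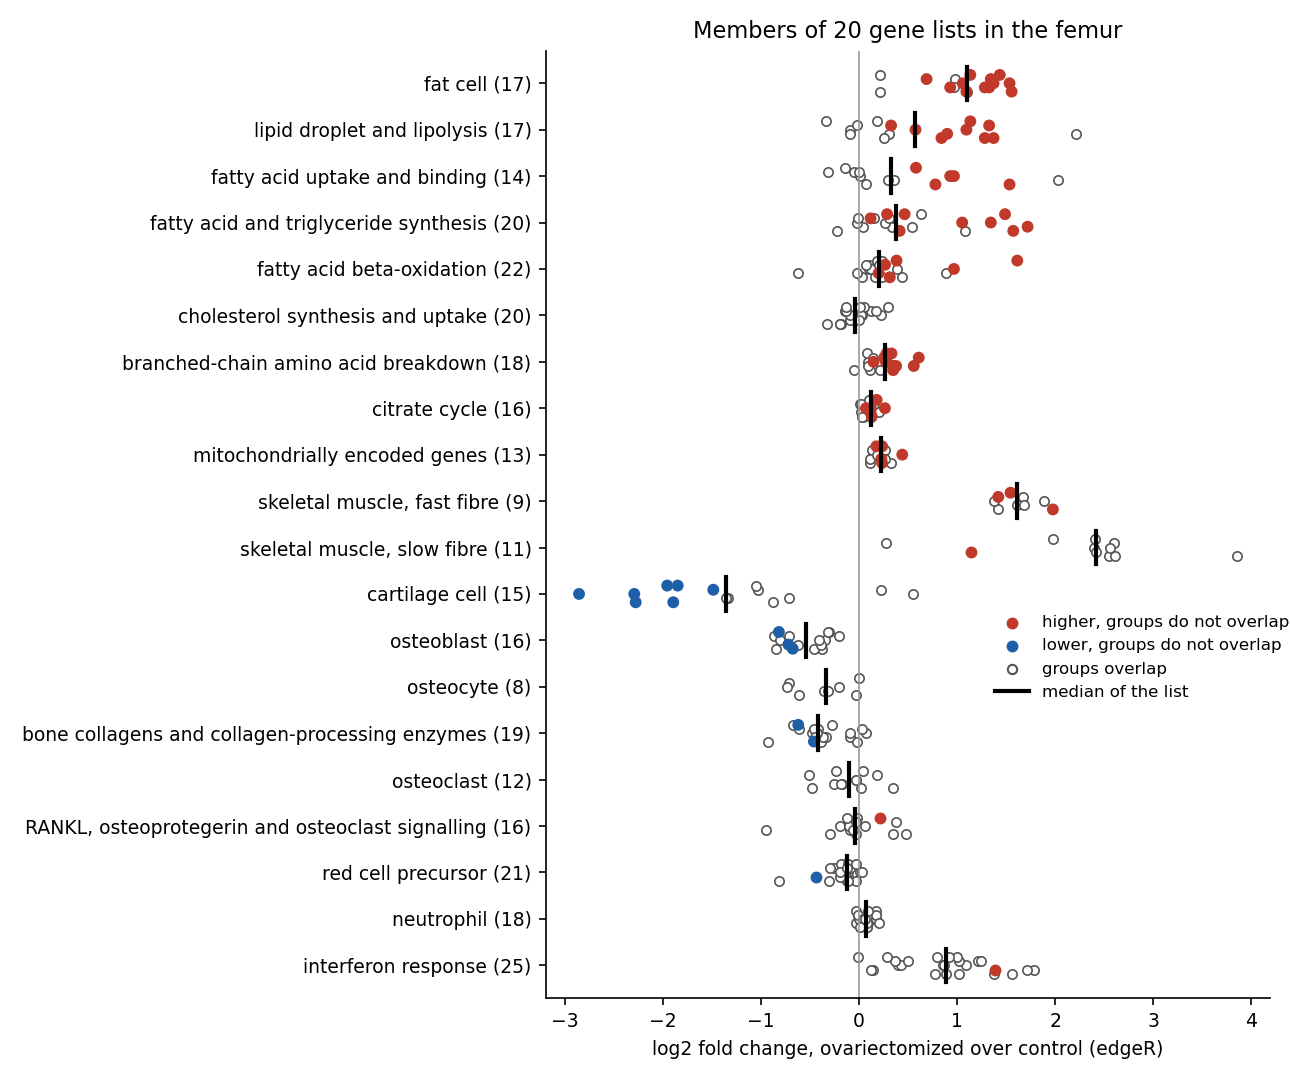
Points are single genes of 20 lists, with the number tested in brackets, placed by edgeR log2 fold change (x axis). Filled points mark genes whose 3 ovariectomized libraries all lie above (red) or below (blue) the 3 controls, and black bars are list medians. Fat and lipid lists lie right of 0 with many filled points, cartilage lies left at a median of -1.36, and cholesterol, osteoclast and neutrophil genes centre near 0.

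Lipid synthesis was split between its branches. In fatty acid and triglyceride synthesis 17 of 20 genes were higher, 9 without overlap and 6 by the looser rule (median 0.38), whereas in cholesterol synthesis and uptake 9 of 20 were higher and 0 were separated in either direction (median -0.04, and 0 on the FPKM scale). The summed level of the first list was 1511, 1668 and 1238 CPM in controls and 2989, 2953 and 1988 CPM in ovariectomized rats. That of the second was 609.8, 589 and 547.3 CPM against 648.1, 585.2 and 566 CPM, where the groups overlapped. Both branches are driven by the sterol-responsive SREBP factors, of which Srebf1 favours fatty acids.

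Scd, the desaturase that makes oleic acid (chromosome 1, 264160129 to 264172729), measured 266, 352 and 166 CPM in controls and 897, 819 and 480 CPM in ovariectomized rats. All ovariectomized libraries were above the controls (1.49 ± 0.36 SE; edgeR adjusted p = 0.892, DESeq2 adjusted p = 0.00424). Acss2, which makes acetyl-CoA in the cytosol, was at 0.46 ± 0.11, and Lpin1, the phosphatase that makes diacylglycerol, at 0.41 ± 0.11, both without overlap. Srebf1 itself was at 0.45 ± 0.19 with overlapping groups. In the cholesterol branch the isomerase Idi1 was at -0.32 ± 0.16, Hmgcs1 at -0.20 ± 0.12 and Dhcr7 at 0.29 ± 0.19.

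Fatty acid uptake and oxidation genes were also mostly higher. Of 14 uptake and binding genes 11 were higher, 5 without overlap, and of 22 beta-oxidation genes 20 were higher, 6 without overlap (medians 0.32 and 0.20). Acsl1, which activates fatty acids to their CoA esters, measured 250, 281 and 164 CPM in controls and 454, 583 and 323 CPM in ovariectomized rats. Slc27a1, a fatty acid transporter, was at 0.58 ± 0.15 (SE), and the mitochondrial oxidation enzymes Hadh and Hadhb at 0.38 ± 0.13 and 0.26 ± 0.10. Pdk4, the kinase that turns pyruvate oxidation off, had 10.5, 10.6 and 43.8 CPM in ovariectomized rats against 6.02 to 8.14 CPM in controls, so its log2 fold change of 1.61 rested on ovariectomized replicate 3 and was 0.58 without it.

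The smallest unadjusted p of the genes named here belonged to Phyh, a peroxisomal enzyme of branched fatty acid breakdown (chromosome 17, 77287188 to 77304530). It measured 36.3, 43.1 and 39.9 CPM in controls and 61.7, 65.6 and 73.7 CPM in ovariectomized rats, with little spread in either group. The log2 fold change was 0.75 ± 0.11 (SE; edgeR adjusted p = 0.6695, DESeq2 adjusted p = 4.84e-05). Pxmp2, a channel of the peroxisomal membrane, was at 1.29 ± 0.30, with 3.31, 2.41 and 1.84 CPM against 7, 7.15 and 4.29 CPM. Tmem120a, a nuclear envelope protein abundant in fat cells, was at 0.61 ± 0.12, and the caveolin Cav2 at 0.81 ± 0.16. DESeq2 called all 4, with adjusted p = 0.0221 for Pxmp2, adjusted p = 0.00379 for Tmem120a and adjusted p = 0.00370 for Cav2. By edgeR no row had an adjusted p under 0.6695.

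**Figure D3:**
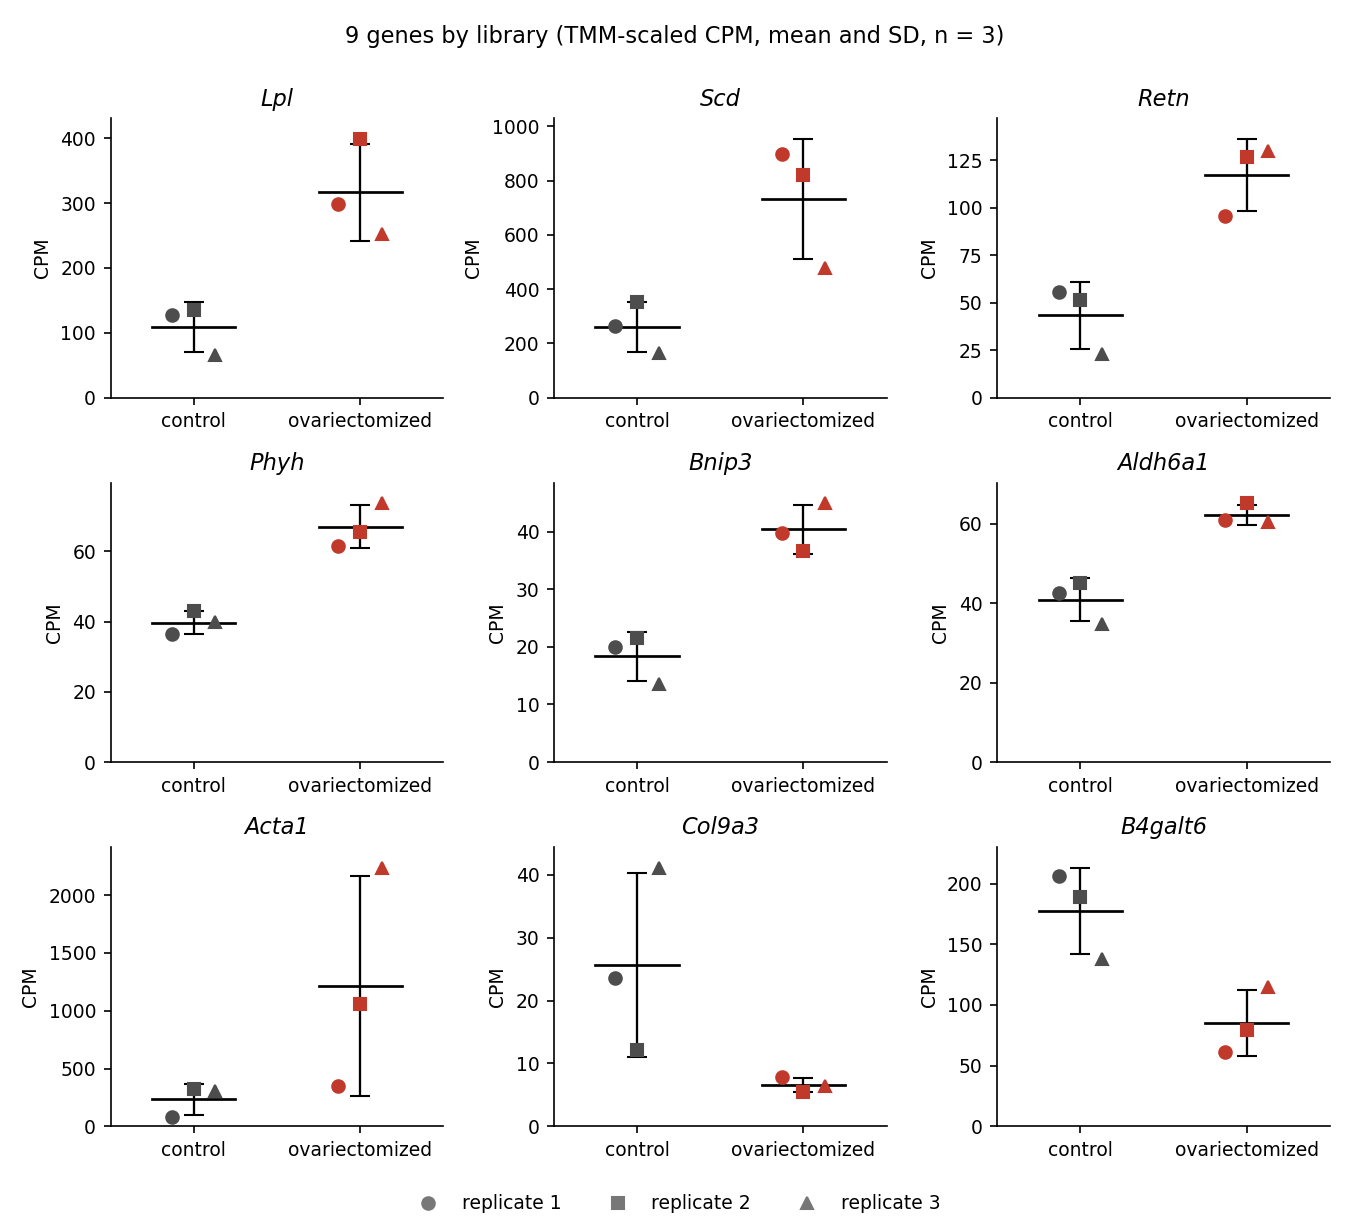
TMM-scaled CPM (y axis, from 0) of 9 genes in the 3 control and 3 ovariectomized libraries. Symbols are replicates, long bars are means and whiskers 1 SD. In all 9 panels the groups do not overlap, with Acta1 spread from 354 to 2237 CPM in ovariectomized rats and Phyh and Aldh6a1 spread little. Lpl, Retn, Phyh, Bnip3, Col9a3 and B4galt6 were named by a rule that admits only rows without overlap. Their lack of overlap follows from that choice.

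Breakdown of the branched-chain amino acids leucine, isoleucine and valine separated the groups by a small but even difference. These enzymes act in mitochondria of fat, muscle and other tissues. Of 18 genes 17 were higher, 11 without overlap, by small amounts (median 0.26, range -0.06 to 0.61). Their sums were 515.2, 507.5 and 522.4 CPM in controls and 621.1, 624.8 and 622.4 CPM in ovariectomized rats, and no library strayed from its group. Ivd, which oxidizes the leucine product isovaleryl-CoA, measured 33.2, 33.9 and 32.1 CPM against 40.4, 42.7 and 43.0 CPM (0.35 ± 0.07 SE; DESeq2 adjusted p = 0.0185). Aldh6a1, an aldehyde dehydrogenase of valine breakdown, measured 42.6, 45.1 and 34.7 CPM against 61.0, 65.1 and 60.5 CPM (0.61 ± 0.14 SE; DESeq2 adjusted p = 0.0487). Bckdha, a subunit of the rate-setting dehydrogenase complex, was at 0.35 ± 0.11, and Acad8 of the valine branch at 0.56 ± 0.17. The edgeR adjusted p was 0.892 for each of these 4 genes.

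Mitochondrial genes were mostly higher, by less. All 13 genes encoded in mitochondrial DNA had higher estimates (median 0.23, 5 without overlap). So did all 20 of respiratory complex I (median 0.12, lowest 0.005) and all 16 of the citrate cycle (median 0.12, lowest 0.006). In complex I only 1 was without overlap, near the 5.01% of all rows, and in the citrate cycle 6 were. In respiratory complexes II to V 20 of 23 were higher, 6 without overlap, and 3 lower (median 0.087, lowest -0.17), with overlapping sums. The mitochondrially encoded genes summed to 35320, 35130 and 35390 CPM in controls and 39030, 38640 and 46010 CPM in ovariectomized rats. Ovariectomized replicate 3, the library with the most muscle transcripts, was the highest, and without it the median was 0.13 for mitochondrial DNA and 0.05 for complex I. Mt-nd3, a complex I subunit, was at 0.44 ± 0.12 (SE) and Idh3b, a subunit of isocitrate dehydrogenase, at 0.18 ± 0.06.

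Bnip3, a mitochondrial outer membrane protein that marks mitochondria for autophagy and is a known target of hypoxia-inducible factors (chromosome 1, 211248098 to 211265282), measured 19.9, 21.5 and 13.6 CPM in controls. In ovariectomized rats it measured 39.7, 36.6 and 44.9 CPM. The groups were widely apart (1.14 ± 0.22 SE; edgeR adjusted p = 0.871, DESeq2 adjusted p = 0.00124). It was the 1 separated gene of 14 in mitophagy, where its relative Bnip3l was at -0.19 ± 0.13 and Sqstm1, the autophagy receptor p62, at 0.15 ± 0.10. Of 28 genes of glycolysis and the hypoxia response, 18 were higher and 10 lower (median 0.05), and 3 were separated on the higher side and 2 on the lower.

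The RefSeq promoter of Bnip3 (GRCr8, chr1:203154913-203155212, minus strand, 250 bases before to 50 after the start) is printed because it holds the hypoxia response core ACGTG, in capitals, once on each strand in overlapping matches. That core occurs on either strand in 19.25% of 33469 rat promoters of this length, in 13 of 25 promoters of the glycolysis and hypoxia list, and in 0 of 16 of branched-chain amino acid breakdown. The 33469 are all promoters of this length, expressed or not, whereas the lists count a single promoter for each tested gene.
Bnip3: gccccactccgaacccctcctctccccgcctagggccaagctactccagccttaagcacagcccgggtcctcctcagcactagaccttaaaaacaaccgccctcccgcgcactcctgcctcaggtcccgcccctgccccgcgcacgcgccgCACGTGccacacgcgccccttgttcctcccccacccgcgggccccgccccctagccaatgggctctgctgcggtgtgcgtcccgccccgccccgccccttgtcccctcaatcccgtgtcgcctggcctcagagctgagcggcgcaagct
The match is a description of these letters, and binding was not measured.

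Skeletal muscle transcripts had the largest medians of the 60 lists. All 9 tested fast fibre genes (median 1.62) and all 11 slow fibre genes (median 2.42) were higher, 3 and 1 of them without overlap, and so were all 16 of the thin filament and Z disc, all 15 of calcium handling and all 14 muscle energy enzymes (medians 2.23, 1.78 and 1.73). Fast fibre genes summed to 293.8, 541.8 and 831.9 CPM in controls and 898.4, 1804 and 3061 CPM in ovariectomized rats. The sums did not overlap, with a ratio of 3.46 between group means, but ranged widely within each group. Slow fibre genes overlapped, at 491.2, 808.9 and 572 CPM against 686.6, 1317 and 2975 CPM. Their sum was higher in all 3 same-numbered pairs, as were 14.1% of all single rows.

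Acta1, the actin of the muscle sarcomere (chromosome 19, 56674074 to 56677084), measured 79.4, 320 and 304 CPM in controls and 354, 1058 and 2237 CPM in ovariectomized rats. The ovariectomized values were all higher but spread over a wide range (2.38 ± 0.74 SE; edgeR adjusted p = 0.892). Myh4, a fast myosin heavy chain, measured 108, 243 and 281 CPM against 395, 760 and 1329 CPM, and Eno3, the muscle enolase, 20.7, 40.7 and 51.3 CPM against 56.3, 114 and 205 CPM. In these 3 genes the lowest library was control replicate 1 and the highest ovariectomized replicate 3. Myoz1, a Z disc protein of fast fibres, was at 1.72 ± 0.40 (SE), Pygm, the muscle glycogen phosphorylase, at 1.70 ± 0.48 and Actn3, a fast fibre actinin, at 1.54 ± 0.42, and DESeq2 called these 3 and Eno3.

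The order of libraries differed between muscle and fat. In each group the library with the highest fast fibre sum, replicate 3, had the lowest fat cell sum. Acta1, Myh4 and Eno3 were detected in all 6 libraries, at levels that varied widely within groups, whereas some tested muscle genes had 0 counts in 1 or more libraries, among them Myf6, a muscle regulatory factor, in control replicate 1. Without ovariectomized replicate 3 the medians were 1.17 for fast fibre, 1.26 for slow fibre, 1.396 for thin filament, 1.04 for calcium handling and 1.06 for energy genes, and Acta1 stood at 1.59. Whether muscle left on the bone differed between the groups was not tested.

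Promoters of Acta1 (GRCr8, chr19:68784145-68784444, minus strand) and Eno3 (GRCr8, chr10:55868936-55869235, plus strand), from RefSeq, are printed as members with the same lowest and highest library. Capitals mark the myogenic E box CAGCTG, which reads the same on both strands and is present in 15.06% of the 33469 promoters, in 6 of 13 of the thin filament and Z disc list, 1 of 7 of the fast fibre list, 4 of 10 of the fat cell list and 6 of 16 of branched-chain amino acid breakdown.
Acta1: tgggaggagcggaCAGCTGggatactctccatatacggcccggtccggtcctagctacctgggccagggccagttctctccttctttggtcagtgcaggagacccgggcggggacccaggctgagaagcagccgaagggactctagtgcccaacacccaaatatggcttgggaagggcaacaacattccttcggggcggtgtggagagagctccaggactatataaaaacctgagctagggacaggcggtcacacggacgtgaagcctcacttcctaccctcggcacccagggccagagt
Eno3: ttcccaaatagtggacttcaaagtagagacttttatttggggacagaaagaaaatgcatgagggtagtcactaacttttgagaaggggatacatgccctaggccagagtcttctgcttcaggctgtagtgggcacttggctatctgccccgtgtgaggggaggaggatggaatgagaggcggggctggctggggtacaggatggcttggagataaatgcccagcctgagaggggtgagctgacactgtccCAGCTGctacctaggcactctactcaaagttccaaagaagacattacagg
Each promoter has 1 match.

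**Figure D4:**
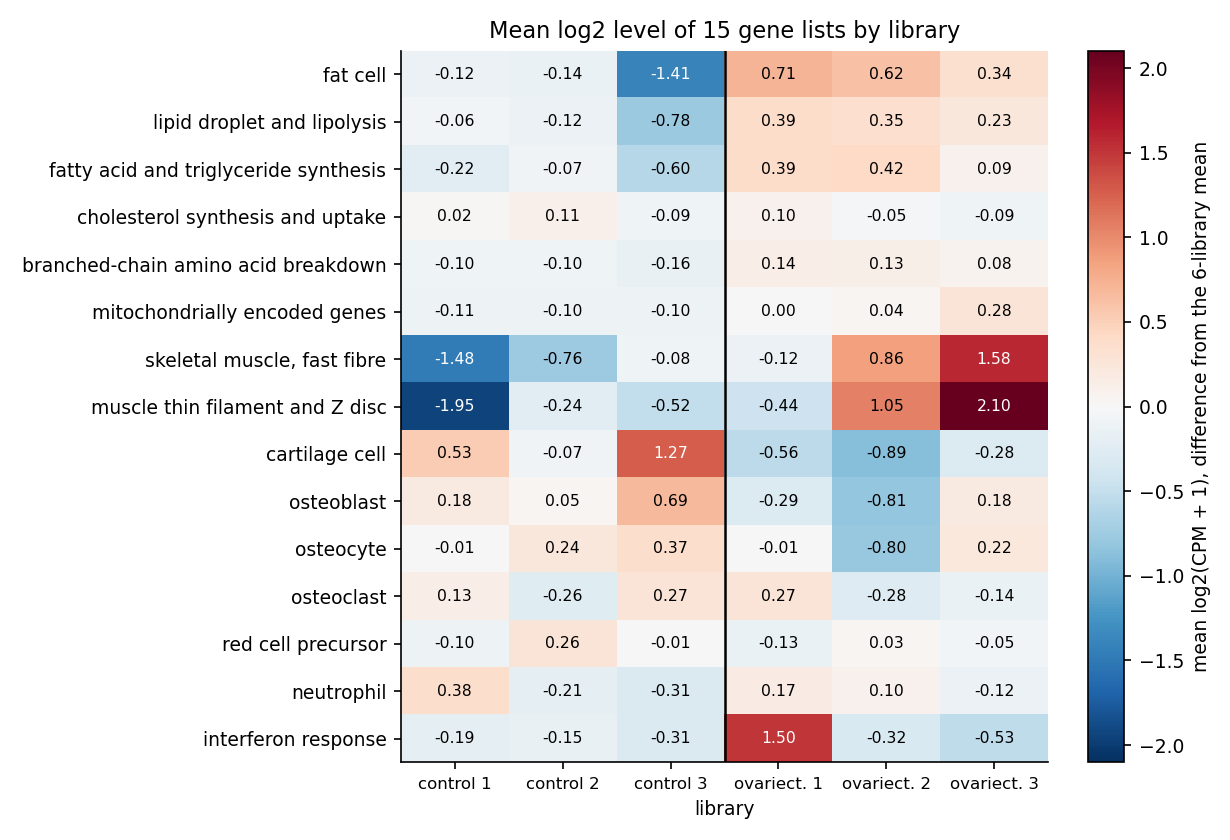
Each cell is the mean over a list's tested members of log2(CPM + 1), as a difference from the mean of the 6 libraries (colour scale and printed value), with lists in rows and libraries in columns, controls left of the black line. The fat rows are lowest in control replicate 3, the muscle rows run from control replicate 1 to ovariectomized replicate 3, and the interferon row is high only in ovariectomized replicate 1 (1.495).

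Cartilage genes were lower in ovariectomized rats. Of 15 tested members 13 were lower, 7 without overlap and 10 by the looser rule (median -1.36, range -2.86 to 0.55). Their summed level overlapped between the groups, at 1128, 811.8 and 2168 CPM in controls and 630.7, 758.8 and 1024 CPM in ovariectomized rats. The sum was lower in all 3 same-numbered pairs, at 0.559, 0.935 and 0.472 of the control, as were 13.4% of all single rows. Control replicate 3 was the high library, and without it the median was -0.99. The ratio of the mean sums was 0.588 with all libraries and 0.83 without that control.

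Col9a3, a chain of collagen IX on the surface of cartilage fibrils (chromosome 3, 176102351 to 176124306), measured 23.6, 12.1 and 41.1 CPM in controls and 7.80, 5.52 and 6.46 CPM in ovariectomized rats. Every ovariectomized library was below the lowest control (-1.96 ± 0.60 SE; edgeR adjusted p = 0.892), and the controls were the more variable group. Col9a2, its partner chain, was at 32.0, 14.6 and 46.0 CPM against 10.7, 9.03 and 13.3 CPM. Hapln1, which links aggrecan to hyaluronan, was at 37.3, 19.1 and 67.8 CPM against 13.6, 8.74 and 12.1 CPM. Cnmd, the cartilage protein chondromodulin that inhibits vessel growth, was at 18.7, 7.19 and 24.9 CPM against 5.6, 1.39 and 3.47 CPM. In all of these genes control replicate 2 was the lowest control and replicate 3 the highest. DESeq2 called 0 members of the list.

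Osteoblast genes lay on the lower side by smaller amounts. All 16 tested members were lower (median -0.54, range -0.87 to -0.20), 3 without overlap and 0 by the looser rule. Their sum, most of it Col1a1 (64.5%), was 5021, 5466 and 9443 CPM in controls and 3051, 3469 and 8563 CPM in ovariectomized rats. Replicate 3 was the highest library of each group, and the sums overlapped. Each ovariectomized library was at 0.608, 0.635 and 0.907 of the control of its number, a pairing that the titles do not state. Over all single rows, 13.4% were lower in all 3 such pairs. Without control replicate 3 the median was -0.35, and without ovariectomized replicate 3 it was -0.86.

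Runx2, the master factor of the lineage, measured 75.1, 53.7 and 80.0 CPM in controls and 61.0, 44.2 and 55.1 CPM in ovariectomized rats, which overlapped (-0.38 ± 0.17 SE; edgeR adjusted p = 0.974). Sp7, which acts after Runx2, was at -0.62 ± 0.34, Pth1r, the parathyroid hormone receptor, at -0.81 ± 0.36, and Ibsp, the mineral-binding bone sialoprotein, at -0.87 ± 0.50. Without control replicate 3, Sp7 was at -0.391 and Pth1r at -0.476, and without ovariectomized replicate 2 Sp7 was at -0.388, Pth1r at -0.535 and Ibsp at -0.452. Ibsp was at -1.525 without ovariectomized replicate 1. In the osteoblast products Bglap (osteocalcin) and Col1a1 the values of 3 libraries spanned more than the groups differed, at -0.31 ± 0.73 and -0.38 ± 0.69.

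Genes that build and mineralize the matrix followed the same side, but these lists share members with the osteoblast list, among them Col1a1, Alpl, Ibsp and Phex. Of 19 bone collagens and collagen-processing enzymes 17 were lower, 2 without overlap (median -0.42), and of 16 mineralization proteins 15 were lower, 1 without overlap (median -0.32). Without control replicate 3 these medians were -0.15 and -0.13. P4ha1, a prolyl hydroxylase of collagen, measured 33.8, 28.5 and 45.5 CPM in controls and 24.8, 25.1 and 28.4 CPM in ovariectomized rats, just separated. Plod2, a lysyl hydroxylase that sets the type of cross-link, was at 116, 100.3 and 139 CPM against 87.5, 47.5 and 95.8 CPM, also separated. Lox, the oxidase that starts cross-links, was at 9.60, 20.3 and 17.0 CPM against 8.18, 6 and 10.4 CPM, where control replicate 1 lay within the ovariectomized range. Alpl, the alkaline phosphatase of mineralizing cells, was at -0.35 ± 0.15, and Mgp, an inhibitor of calcification that cartilage also makes, at -1.17 ± 0.53.

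Osteocytes, the cells buried in bone, showed lower estimates in 8 of 8 tested markers (median -0.34) with 0 separated. Ptprz1 was at -0.74 ± 0.28 (SE) and Phex, an osteocyte peptidase of phosphate balance, at -0.72 ± 0.41. Dmp1, a matrix phosphoprotein, measured 220, 289 and 178 CPM in controls and 167, 84.5 and 283 CPM in ovariectomized rats. Sost, whose product sclerostin blocks Wnt signals, measured 22.9, 29.2 and 33.9 CPM against 37.9, 14.5 and 31.8 CPM. Ovariectomized replicate 2 was the low library for both genes, and without it the list median was -0.07.

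**Figure D5:**
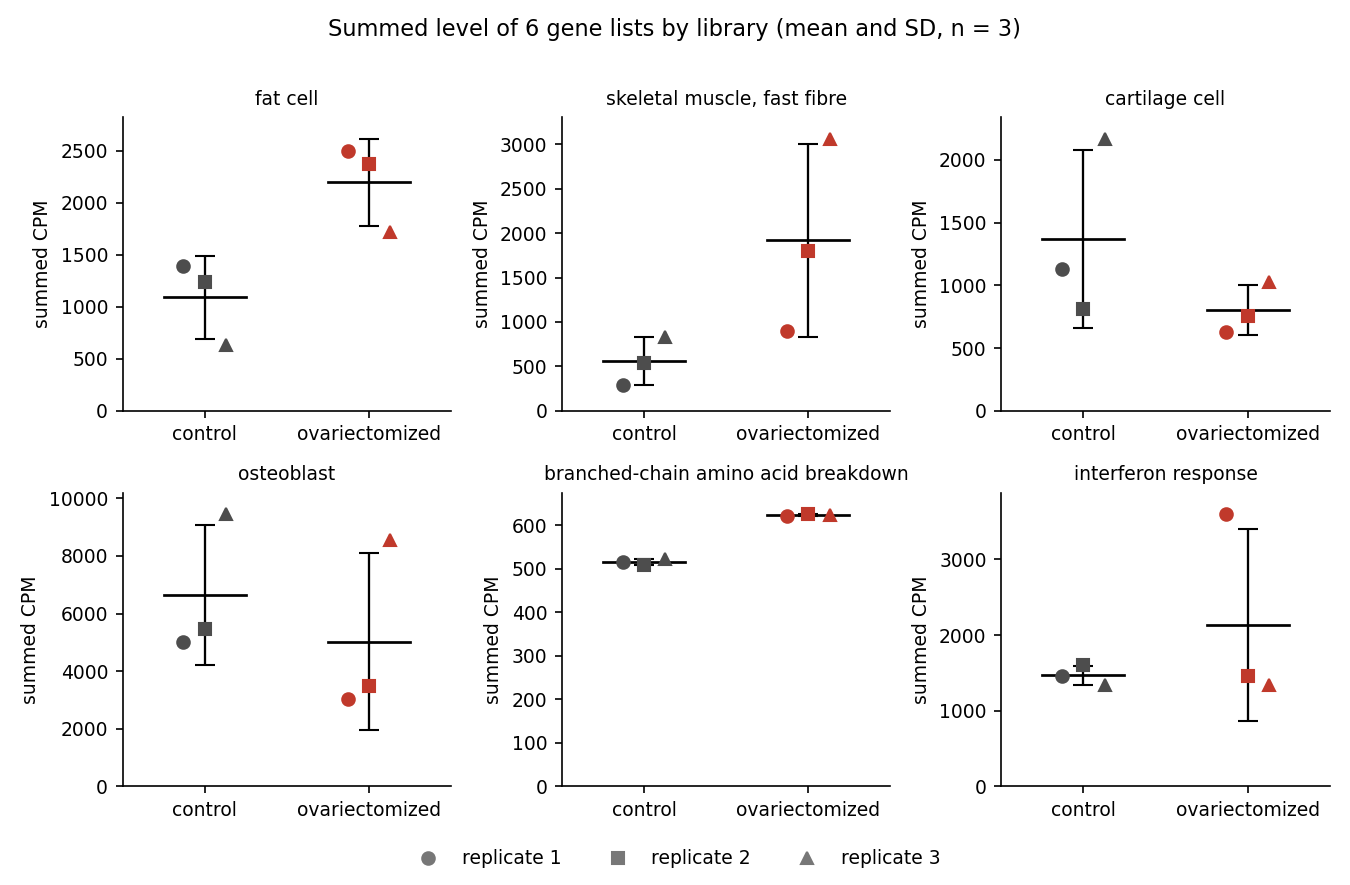
Summed CPM per total counts (y axis, from 0) of 6 lists in each library, with symbols for replicates, long bars for means and whiskers for 1 SD. The branched-chain amino acid sums are 507.5 to 522.4 CPM in controls and 621.1 to 624.8 CPM in ovariectomized rats, the fat and fast fibre sums do not overlap, the cartilage and osteoblast sums do, and 1 ovariectomized library stands out in the interferon panel.

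Genes of bone resorption did not separate the groups. Of 12 tested osteoclast markers 4 were higher and 8 lower (median -0.11), with 0 outside the overlap. Acp5, the tartrate-resistant phosphatase of osteoclasts, measured 262, 200.2 and 434 CPM in controls and 323, 139 and 182 CPM in ovariectomized rats. Ctsk, the collagen-degrading cathepsin, measured 419, 208 and 590 CPM against 523, 197 and 301 CPM. Both genes ranged widely within each group, at -0.48 ± 0.43 and -0.25 ± 0.48 (SE).

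The ligand that drives osteoclast formation, RANKL (Tnfsf11), fell below the filter, with 0, 0 and 87 counts in controls and 0, 0 and 53 counts in ovariectomized rats. Its decoy receptor osteoprotegerin (Tnfrsf11b) was at 31.3, 14.0 and 26.9 CPM in controls against 16.0, 6.45 and 15 CPM. The groups overlapped (-0.95 ± 0.51 SE; edgeR adjusted p = 0.997). Tnfrsf11b was lower in all 3 same-numbered pairs, at 0.512, 0.463 and 0.556 of the control, as were 13.4% of all rows. Traf6, the adaptor that carries the signal from RANK, was separated by a small difference, 14.9 to 17.3 CPM against 18.2 to 18.8 CPM (0.21 ± 0.09 SE). Of 15 tested inflammatory cytokine genes 7 were higher and 8 lower, with 2 separated on the lower side. Il17b, a ligand of the interleukin-17 family, was lower and separated at low levels, 1.55, 1 and 2.21 CPM against 0.644, 0.311 and 0.403 CPM. Ccl2, a monocyte attractant, was at 0.70 ± 0.34 with overlap, and 0.41 without ovariectomized replicate 1.

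Receptors for the ovarian steroids fell below the filter of a mean of 1 FPKM and were not tested in the main comparison. Esr1, the main oestrogen receptor, had 191, 40 and 122 counts in controls and 134, 154 and 88 counts in ovariectomized rats, and Esr2 had 0 in all 6. The progesterone receptor gene Pgr, an oestrogen target in many tissues, had 31 to 162 counts. Of the 13 tested oestrogen-responsive genes 4 were higher and 9 lower. The 1 that was separated was Ccn5, a secreted matricellular protein induced by oestrogen in other tissues, with 11.5, 18.4 and 11.6 CPM in controls and 6.83, 5.03 and 8.27 CPM in ovariectomized rats (-1.04 ± 0.33 SE; edgeR adjusted p = 0.892). Ghr, the growth hormone receptor, measured 46.3, 37.0 and 26.9 CPM against 90.5, 70.2 and 50.3 CPM, all higher (0.94 ± 0.28 SE). Esrra, an orphan receptor that promotes mitochondrial genes, was separated at 0.28 ± 0.08.

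Ligands and antagonists of bone growth pathways included few separated genes. Of 21 Wnt pathway genes 7 were higher and 14 lower, with 2 separated on the higher side, where 5.01% of all rows lay. These were the antagonist Sfrp1 (28.5, 26.3 and 25.9 CPM against 41.8, 36.8 and 28.6 CPM) and the receptor Fzd4 (25.5, 28.2 and 25.1 CPM against 45.9, 35.5 and 35.3 CPM). Frzb, an antagonist made by cartilage cells, was at -1.21 ± 0.48 with overlap, and -0.565 without control replicate 3. Of 25 BMP and TGF-beta genes 20 were lower (median -0.10), and 2 were separated on the lower side, where 3.95% of all rows lay. They were Tgfb2 at -0.60 ± 0.23 and Bmp3, a BMP of osteoblast lineage cells, at -0.68 ± 0.34. In the IGF axis, Igf2 was higher, at 5.39, 3 and 7.08 CPM against 7.44, 8.24 and 18.0 CPM (1.12 ± 0.40 SE), all above the controls but 0.603 without ovariectomized replicate 3, and Igf1, the main IGF of bone, was at -0.26 ± 0.19.

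Blood-forming marrow lists had few separated genes. Red cell precursor genes were lower in 19 of 21 cases (median -0.13) with 1 separated, Hba-a2, which encodes alpha-globin and shares reads with close copies. The list's sum was 56980, 108700 and 56890 CPM in controls and 49870, 56440 and 49890 CPM in ovariectomized rats, a ratio of 0.702. By total counts the groups only just missed overlapping. Control replicate 3 had a TMM factor of 1.012 and ovariectomized replicate 2 of 0.9948. With TMM-scaled sizes these libraries changed order, so the groups overlapped. Without control replicate 2, the high library, the ratio was 0.915 and the median turned to 0.03. Neutrophil genes (14 of 18 higher, median 0.07), B lymphocyte precursor genes (11 of 14 higher, median 0.17) and endothelial genes (6 of 13 higher) had 1 separated gene among them, Sox18, a vascular transcription factor, at 0.30 ± 0.15. The neutrophil median turned to -0.066 without control replicate 2 and -0.087 without control replicate 3, and the B lymphocyte median to -0.073 without control replicate 1 and -0.021 without ovariectomized replicate 3. Megakaryocyte genes were lower in 17 of 18 cases (median -0.20). Gp1bb, a platelet receptor subunit, owed its log2 fold change of -2.92 to control replicate 3, with 38.1 CPM against 1.49 to 2.93 CPM in the other 5 libraries, and was at -0.59 without it.

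Interferon response genes were higher in 24 of 25 cases (median 0.88), from 1 library. Mx2, an antiviral GTPase, measured 8.45, 13.6 and 9.99 CPM in controls and 91.7, 8.72 and 10.1 CPM in ovariectomized rats. Ifi27 was the 1 separated member, at 31.5, 31.6 and 38.6 CPM against 162, 49.9 and 52.7 CPM. Without ovariectomized replicate 1 the list median turned to -0.22, and Ifi27 was at 0.60.

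Several other genes were separated at lower levels in ovariectomized rats. B4galt6, which makes lactosylceramide, the precursor of complex glycosphingolipids (chromosome 18, 15462913 to 15525579), measured 206, 189 and 138 CPM in controls and 61.5, 79.1 and 115 CPM in ovariectomized rats (-1.06 ± 0.23 SE; edgeR adjusted p = 0.892, DESeq2 adjusted p = 0.00370). It was the 1 separated gene of 19 in glycosphingolipid synthesis. Cemip, a hyaluronan-degrading protein, measured 20, 12.9 and 26.2 CPM against 6.91, 7.04 and 10.7 CPM (-1.26 ± 0.34 SE; DESeq2 adjusted p = 0.0477). Tcf15, a basic helix-loop-helix factor of the embryonic somites, measured 6.79, 6.91 and 6.70 CPM in controls, with little spread, against 4.18, 4.61 and 3.95 CPM (-0.68 ± 0.13 SE; DESeq2 adjusted p = 2.18e-04). The edgeR adjusted p of Cemip and Tcf15 was not under 0.6695, the smallest of any row. Rtn3, a reticulon of the endoplasmic reticulum, was separated only barely, since control replicate 1 had 79.5 CPM and ovariectomized replicate 1 had 79.2 CPM. Arnt2, a partner of PAS-domain factors, was at -0.71 ± 0.20, B9d1, a protein of the base of the primary cilium, at -0.73 ± 0.22, and Krt76, an epithelial keratin, at -1.68 ± 0.41. Histone rows (H1f5 at -0.85 ± 0.19, Hist2h3c2 at -1.33 ± 0.35) and Snord100, a small nucleolar RNA inside another gene, are uncertain because reads can be shared with near-identical copies or a host gene.

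Among the remaining genes on the higher side, Aldh1a7, an aldehyde dehydrogenase of the retinaldehyde family, measured 0.133, 0.0848 and 0.490 CPM in controls and 2.56, 3.99 and 2.01 CPM in ovariectomized rats (3.57 ± 0.74 SE; edgeR adjusted p = 0.892, DESeq2 adjusted p = 5.36e-04), a low level in both groups. The row passed the filter on mean FPKM only through libraries other than the controls, which limits the weight of its fold and p. Rbp4, the plasma carrier of retinol that fat cells also secrete, measured 26.3, 24.6 and 12.1 CPM against 59.2, 52.5 and 27.2 CPM. Ppp1r1a, an inhibitor of protein phosphatase 1, was at 2.001 ± 0.417, Kcnn3, a calcium-activated potassium channel, at 1.44 ± 0.32, and Ubd, a ubiquitin-like modifier, at 1.19 ± 0.25 from levels under 2 CPM. Sod3, the extracellular superoxide dismutase, measured 14.4, 15.2 and 17.8 CPM against 26.8, 22 and 21.7 CPM (0.57 ± 0.12 SE; DESeq2 adjusted p = 0.0103). Its edgeR adjusted p was not under 0.6695, the smallest of any row. Timp4, an inhibitor of matrix metalloproteinases, was at 1.06 ± 0.28, and Atf3, a stress-induced factor, at 0.93 ± 0.28. Hmox1, the haem-degrading oxygenase of marrow macrophages, was lower, at 209, 262 and 260.3 CPM against 206, 162 and 123 CPM (-0.57 ± 0.22 SE). Hspa1b, an inducible Hsp70 with near-identical copies, was at 1.02 ± 0.22 and remains uncertain for that reason.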

How the data were processed

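Poly(A) RNA of rat femur was sequenced from 3 control, 3 ovariectomized and 3 herb-treated libraries, grouped by the samples' titles. Per the submitters' processing notes, fastp, HISAT2 and StringTie were used, with versions and the genome build not given in the sources used here. The deposited table gives whole-number counts and FPKM per gene, per the file headers; strandedness of counting is not stated, so overlapping and antisense genes cannot be told apart. Rows whose FPKM averaged 1 or more over 9 libraries were tested. Counts were scaled by TMM and tested by edgeR's quasi-likelihood test (edgeR 4.0.16, R 4.3.3) over all 9 libraries, with Benjamini-Hochberg adjustment over 13886 rows, and CPM were computed from the counts. DESeq2 1.42.0, limma 3.58.1 on log2(FPKM + 1) or log2(FPKM + 0.1), other scalings and filters, a replicate block and leaving out each library were alternatives. In counts simulated from this comparison over 13886 rows, the test recovered 48% of 100 genes changed 2-fold and 82% of 100 changed 4-fold, with 4 false calls. Each row was drawn on its own, without the shifts of whole tissue lists seen between real libraries within a group. These shares therefore describe the simulated counts only and do not give the share of real changes that would be found. The lack of edgeR calls in the real data is thus not evidence that large changes are absent.

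Deviations from the group mean correlated at 0.255, 0.153 and 0.156 between same-numbered libraries. Differently numbered libraries ran from -0.258 to 0.12, the highest being control replicate 2 with ovariectomized replicate 3. The titles do not state a pairing, so comparisons within same-numbered libraries are descriptions, and the main fit did not pair them. With 3 against 3 libraries an exact permutation p cannot fall below 0.1, so list sums are given without a p. A separated gene is one whose 3 ovariectomized libraries all lay above, or all below, the 3 controls. Of 1020 symbols on the 60 lists, 973 had a row and 864 were tested. Some symbols are on more than 1 list, so the lists are not independent of each other. The genes and lists were chosen with earlier results of these data known. Genes named are among the 15 higher and 15 lower separated rows with the smallest p and a fold of at least 1.5, up to 4 members of each list with the smallest p, and a fixed set of bone, fat and muscle genes. Ucp1 and Tpm3, outside that rule, were chosen after their values were seen. Some genes that this rule names are not reported here. Promoter sequences are from RefSeq (GRCr8), matched by symbol. Motif shares over all promoters include genes that were not tested, whereas list counts use a single promoter for each tested gene, so the sets differ.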

Additional observations from a re-analysis of the deposited data

How the results depend on the processing

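The adjusted-p count of 0 was 59 with DESeq2, 2 with only the 6 libraries compared, and 0 to 4 when 1 library was left out, and 0 in every other alternative run. By the looser rule (unadjusted p and 2-fold), a mean FPKM of at least 5 gave 88 higher and 27 lower rows, no filter gave 357 and 172, and leaving out 1 library gave 134 to 239 higher and 36 to 108 lower. Of the 193 higher rows, 85 were kept without ovariectomized replicate 3 and 166 without control replicate 2. Separated rows numbered 1055 higher and 284 lower on deposited FPKM, and 442 higher at a mean FPKM of at least 5. The fit with a replicate block gave 0 adjusted calls, with 183 higher and 37 lower rows at the looser rule, and the block changed no other call.

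With 1 library left out, list medians ranged from 0.134 to 0.466 for adipogenic factors, -0.664 to -0.117 for mineralization, 0.184 to 0.285 for branched-chain amino acids, 0.196 to 0.469 for fatty acid uptake, 0.00 to 0.156 for glycolysis and hypoxia, 1.038 to 2.155 for muscle calcium handling, -0.522 to -0.107 for osteoblast factors, -0.273 to 0.031 for red cells and -0.215 to 1.206 for interferon. Red cells and interferon changed sign, as did neutrophil (-0.087 to 0.283), B lymphocyte (-0.073 to 0.38), osteoclast (-0.17 to 0.019) and cell cycle genes (-0.183 to 0.02). Of 112 named genes, 39 shrank by over 1.5 times or changed sign in at least 1 such fit. Those that changed sign ranged from -1.353 to 0.126 (Bglap), -0.049 to 0.446 (Cfd), -1.276 to 0.037 (Col1a1), -0.704 to 0.12 (Ctsk), -0.185 to 2.244 (Mx2) and -0.307 to 0.278 (Sost). For branched-chain amino acids limma on log2(FPKM + 0.1) gave a median of 0.304, and the summed ratio was 1.17 with TMM scaling, 1.248 as a share of summed FPKM and 1.228 without the most abundant member. The slow fibre ratio was 5.79 without Tpm3, its most abundant member. The causes of these shifts were not tested. Genes under a mean of 1 FPKM were not tested in the comparison.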

Other observations

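Other cell type lists, and that of the cell cycle, showed few separated genes. Of 26 cell cycle genes 24 were lower in ovariectomized rats, with 0 separated and a median log2 fold change of -0.08 that was 0.02 without control replicate 2, the library with the most red cell transcripts. Of 13 macrophage genes 11 were lower, 2 of them separated, Hmox1 and Adgre1, a surface receptor of macrophages. Of 16 genes of T and natural killer cells 7 were higher and 9 lower, and of 11 plasma cell genes 4 were higher and 7 lower, with 0 separated in either list. Of 19 fibroblast and tendon genes 12 were higher, with Dcn, the collagen-binding proteoglycan decorin, and Clec3b, which encodes tetranectin, separated.

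A further set of rows, chosen after their values were seen, had no counts in some libraries and high counts in others. There were 85 rows with 0 counts in at least 1 of the 6 libraries and at least 5 CPM in another, and they made up 8 of the 13 rows with a log2 fold change beyond 5 in either direction. Med22, a subunit of the Mediator complex, had 0, 0 and 0 counts in controls and 339, 295 and 391 counts in ovariectomized rats. The second of 2 rows for Cttn, an actin-binding protein, had 0, 0 and 2536 counts in controls and 0 in all ovariectomized libraries. Of these 85 rows, 3 were among the higher and 3 among the lower rows of the looser rule, and 0 were among those that DESeq2 called.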
